A study of Mus musculus with 514 samples.

Results

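The 250 genes described here switched on together in the late 2-cell mouse embryo, the stage of the major wave of zygotic genome activation. They were taken from 55168 genes with a name in single-embryo RNA-seq of Nr5a2 and Esrrb mutants, by their mean log2(TPM + 1), where TPM stands for transcripts per 1000000, a unit that allows for transcript length and library size. A gene had to average at least 5 (31 TPM) in late 2-cell (L2C) z_NrHet embryos and under 1.5 (1.83 TPM) both in OoMII_Nrpp oocytes and in early 2-cell (E2C) mz_Nrpp embryos. Of the 415 genes that met these levels, 34 ribosomal, proteasome, Nduf and Obox genes were left out by name, and the 250 with the largest L2C minus E2C difference were kept from the other 381. Their rise between E2C and L2C is therefore how they were found, and it is described below without a test.

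In the mouse, transcription from the embryo's own genome begins weakly in the zygote and becomes broad at the late 2-cell stage, while messages stored in the oocyte are degraded. Genes of the major wave serve general cell growth as well as the first lineage decisions, and some of them encode regulators of the trophectoderm, the outer layer that forms at the morula and blastocyst stages. Nr5a2 and Esrrb are orphan nuclear receptors that bind DNA as monomers at motifs holding AAGGTCA, and both are known as pluripotency regulators in embryonic stem cells.

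Every embryo compared with a control carried mutant alleles from the mother, the zygote or both, and the controls at L2C, 4-cell (4C) and 8-cell (8C) were heterozygous rather than wild type. The prefix mz names maternal and zygotic mutants, m maternal and z zygotic ones. NrKO is an Nr5a2 knockout, EKO an Esrrb knockout and DKO a knockout of both, whereas mz_DHet controls are heterozygous for both genes, NrHet controls are heterozygous for Nr5a2, and Nrpp marks wild-type or floxed alleles, per the file headers. At L2C there were 10 mz_NrKO, 10 mz_EKO, 6 mz_DKO and 7 mz_DHet embryos, with 6 z_NrKO and 7 z_NrHet embryos beside them. At 4C there were 5 mz_NrKO, 4 mz_EKO, 10 mz_DKO and 6 mz_DHet embryos, and at 8C 10 of each mutant and 21 mz_DHet embryos. Earlier samples were OoMII oocytes (12 NrKO, 18 NrHet and 9 Nrpp) and E2C embryos (22 mz_NrKO, 18 m_NrKO, 12 z_NrKO, 29 mz_NrHet and 21 mz_Nrpp). Embryos grew ex vivo and were lysed one to a tube. The labels give neither the driver of the deletion nor the strain, mother or litter, nor which part of each allele was removed.

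Nr5a2 transcripts were still present in the Nr5a2 mutants. At L2C the lowest, median and highest levels were 114, 533 and 799 TPM in mz_NrKO embryos, against 329, 532 and 648 TPM in mz_DHet embryos. At 8C they were 293, 656 and 961 TPM in mz_NrKO embryos and 509, 790 and 1050 TPM in mz_DKO embryos, against 184, 485 and 695 TPM in mz_DHet embryos. Esrrb at 8C was listed at 2.23, 20.3 and 25.3 TPM in mz_EKO embryos, against 13.4, 48.7 and 76.5 TPM in mz_DHet embryos, and fell by 1.56 ± 0.24 (SE) on the log2 scale (limma adjusted p = 0.000277). Since the deleted part is not given, the level of the whole transcript does not check the deletion.

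Between 10863 and 15971 genes exceeded 1 TPM per library from L2C to 8C. Markers of cumulus cells summed to at most 13.3 TPM in these libraries, sperm markers to at most 73.3 TPM and oviduct markers to at most 99.8 TPM. Blood markers had medians of 14.3, 10.8 and 6.4 TPM at L2C, 4C and 8C. In 3 libraries of 4C (mz_DKO replicate 3, and mz_DHet replicates 1 and 2) they summed to 2142.6, 3554.5 and 1347.7 TPM. The list holds haemoglobin and leukocyte genes, and which of them were high in these 3 libraries was not separated. Over all 4C libraries the leukocyte gene Ptprc had a median of 0. Collection dates differed between groups. At L2C all 10 mz_NrKO embryos were dated 8 March 2022, whereas 5 of the 7 mz_DHet embryos were dated 22 May and 2 were dated 8 March. Date was a factor in every test.

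The values that chose the genes give the size of the switch between E2C and L2C, which shared no collection date. The mean log2 difference between L2C z_NrHet and E2C mz_Nrpp was 8.94 for Timd2, a receptor for ferritin in the mouse, 8.90 for Cd63, a tetraspanin of late endosomes, and 8.89 for the folate receptor Folr1. Next came Gata1 at 8.71, a transcription factor known from red cell and megakaryocyte development, the sialic acid lyase Npl at 8.53, the membrane transporter Slc4a11 at 8.43 and Exoc3l2, a relative of an exocyst subunit, at 8.22. The vitamin B6 kinase Pdxk followed at 8.11, the Golgi stacking protein Gorasp1 at 7.93 and Uap1l1 at 7.91. At the other end, Hist1h2ap and Mocs3 were among the last genes kept, at 4.98 and 4.97, and Ikbkg, Gemin2 and Tmem160 were just outside, each at 4.95.

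What the rule did not use was the genes' identity. Of the 250, 202 had an ordinary gene symbol and 48 were predicted genes, pseudogenes or clone names. In the annotation, 201 were protein coding, 21 were processed pseudogenes and 7 were unprocessed pseudogenes. Chromosomes 11, 2 and 7 held the most, with 33, 32 and 29. For chromosomes and for the clusters below no shares over all genes were counted, so neither is read as particular to the members. Some lay side by side: 27 clusters had neighbours within 100000 bases, among them 8 predicted genes at chr11:60560924-60680088, the class I genes H2-Q6, H2-Q7 and H2-Q10 at chr17:35424850-35474563, and the metallothionein pair Mt2 and Mt1 at chr8:94172664-94180327 (mm10). Members of such families are near copies of each other, so reads could be split among them and their separate values are uncertain. Median transcript length was 994.5 bases in the 243 genes with an annotated length, against 1161.25 bases in the other genes tested at L2C.

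In oocytes and at E2C most of the genes were low in the genotypes that the rule did not use as well. Values were listed at 0 in 77.8% of cases in OoMII_NrKO and 73.7% in OoMII_NrHet oocytes, and at E2C in 63.5% in mz_NrKO, 59.0% in m_NrKO, 60.1% in z_NrKO and 58.0% in mz_NrHet embryos, against 1.4% at L2C in mz_DHet embryos. In the 2 groups of the rule, where low means were required, the shares were 72.9% in OoMII_Nrpp oocytes and 62.4% in E2C mz_Nrpp embryos. Genes with a mean log2 of at least 1.5 numbered 3 in OoMII_NrKO and 7 in OoMII_NrHet oocytes, and at E2C 12 in mz_NrKO, 17 in m_NrKO, 21 in z_NrKO and 20 in mz_NrHet embryos. Mt1, a metal-binding metallothionein, was the only member to average at least 3 in any of the 4 E2C groups. A few E2C libraries stood apart. The summed level of the 250 genes was highest in mz_NrKO replicate 1, at 2035 TPM beside a group median of 272.5 TPM, and this library had 30 members at 5 TPM or more and the lowest oocyte list sum of its group, 2250 TPM beside a median of 12879.35 TPM. By the number of members at 5 TPM or more, mz_NrHet replicate 28 had 71 members at 5 TPM or more, z_NrKO replicate 12 had 63 and m_NrKO replicate 15 had 60, beside group medians of 17, 15 and 19. Without these 4 libraries the numbers of genes with a mean log2 of at least 1.5 were 11 in mz_NrKO, 16 in m_NrKO, 17 in z_NrKO and 16 in mz_NrHet embryos.

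By L2C nearly all of the genes were on in all genotypes. The median log2 level over the 250 genes, taken in each embryo, averaged 6.02 ± 0.58 in mz_NrKO, 6.35 ± 0.34 in mz_EKO and 6.41 ± 0.16 in mz_DKO embryos, against 6.55 ± 0.10 in mz_DHet embryos (SD; n = 10, 10, 6 and 7). Zygotic mutants had 6.52 ± 0.17 in z_NrKO embryos beside 6.59 ± 0.13 in z_NrHet embryos (SD; n = 6 and 7). Libraries of mz_NrKO spread furthest: replicate 6 stood apart at 4.57, with 204 members at 5 TPM or more and a summed level of 10383 TPM, while the group median of that sum was 29959.5 TPM in mz_NrKO, against 39650 TPM in mz_DHet embryos. The same replicate had the highest sum of the 2-cell burst list (Zscan4, Usp17l and related genes of the earlier transient wave) of its group, at 10498.8 TPM, and an oocyte list sum of 8432.4 TPM, beside group medians of 3766.2 and 3935 TPM in mz_NrKO and 3057.9 and 3780.6 TPM in mz_DHet embryos. Their part in the low level was not tested. At 4C the means were 6.55 ± 0.11 in mz_NrKO, 6.66 ± 0.21 in mz_EKO and 6.45 ± 0.09 in mz_DKO embryos, against 6.56 ± 0.14 in mz_DHet embryos (SD; n = 5, 4, 10 and 6). At 8C they were 5.68 ± 0.43, 5.93 ± 0.14 and 5.93 ± 0.17 in mz_NrKO, mz_EKO and mz_DKO embryos (SD, n = 10 each), against 5.73 ± 0.33 in mz_DHet embryos (SD, n = 21). These means were not adjusted for date, and only mz_NrKO (3) and mz_DHet (4) had 8C embryos of 15 July 2022. The mz_DHet embryos of 15 July had 5.22 to 5.43, and those of 8 March 5.68 to 6.15. On 23 February 2022 mz_DHet replicates 1 and 2 had 5.26 and 4.99. Replicate 1 of mz_NrKO, mz_EKO and mz_DKO, of the same date, had 4.79, 5.56 and 5.62. The part of date in the group means was not tested.

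**Figure D1:**
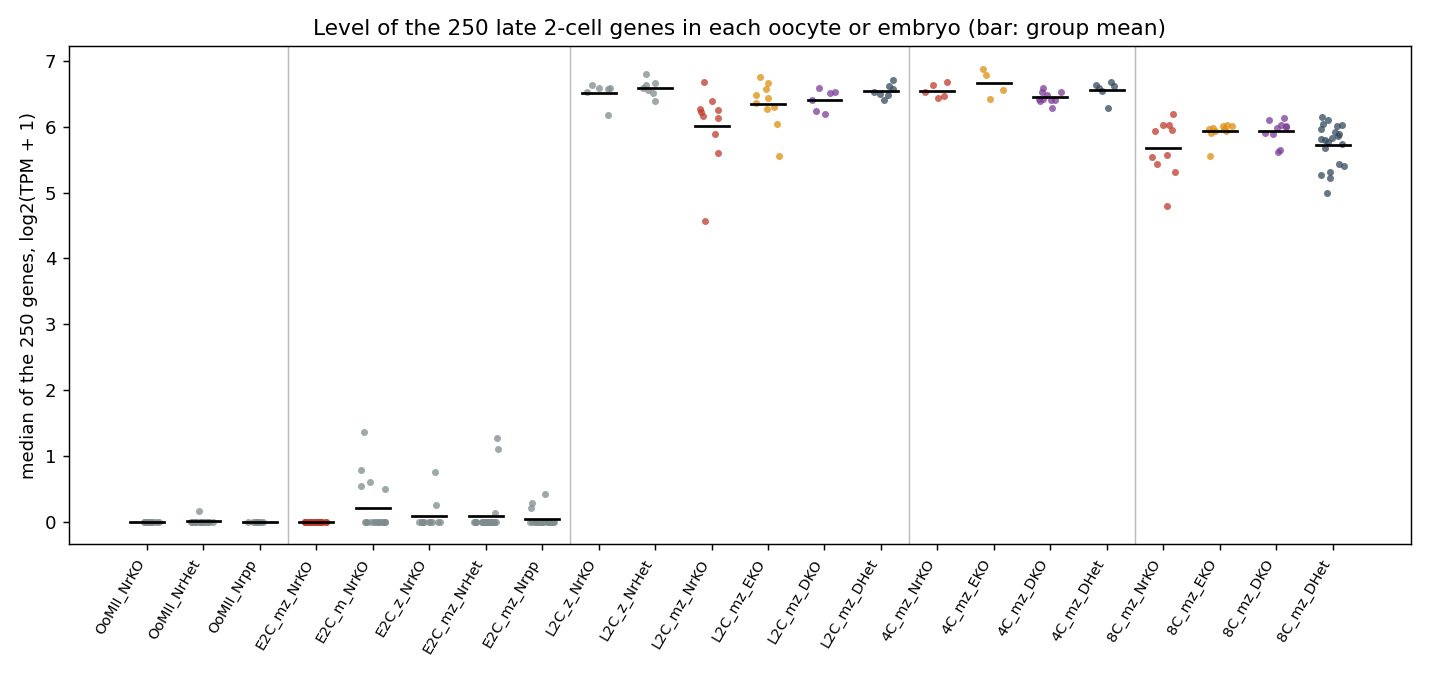
Median log2(TPM + 1) of the 250 genes in each oocyte or embryo (points), by stage and genotype, with a bar at the group mean. Oocytes and E2C embryos sit near 0, all L2C, 4C and 8C embryos sit above 4.5, and L2C mz_NrKO replicate 6 stands lowest at its stage at 4.57.

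Promoters were examined because many members move together and the mutated genes encode DNA-binding proteins. RefSeq (GRCm38.p6) gave 195 promoters, each from 250 bases before to 50 after a gene start, for 162 of the 250 genes. The motif AAGGTCA or AAGGCCA, on either strand, was in 7.7% of them (15 promoters), against 8.2% of promoters of the other genes tested at L2C (985 of 12000) and 10.6% of all promoters in the table (3484 of 32851). Among members called lower in mz_NrKO or mz_DKO embryos at any stage it was in 12.7% (8 of 63), and among those called higher in 6.2% (3 of 48). TATAAA was found in 5.6% of members' promoters, beside 7.2% of the other genes tested, CCAAT in 28.2% beside 39.2%, and GGGCGG in 51.3% beside 60.5%. These shares are descriptions with no test, and a match is not a binding site.

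The promoters of 5 members named below are shown 5′ to 3′ on the strand of the gene, with the searched motif in capitals (TGACCTT is AAGGTCA read on the other strand). These 5 were picked and are not a sample: among members called lower the motif was in 12.7% of promoters (8 of 63). Ajuba (chr14:54577612-54577911, minus strand, match beginning at -72 from the gene start), Tmem191c (chr16:17276050-17276349, plus strand, -186) and Gpr161 (chr1:165295516-165295815, plus strand, -81) each hold 1 match. Rflnb (chr11:76027733-76028032, minus strand) and Aqp11 (chr7:97738198-97738497, minus strand) hold none in this window, and neither does a further Gpr161 promoter at chr1:165302373-165302672. The promoter of Actn2, which is not shown, holds none either. GC content was 54.0% for Ajuba, 56.3% for Tmem191c, 44.0% for the Gpr161 promoter shown, 77.0% for Rflnb and 68.0% for Aqp11. Tead4 was not in the promoter table.
Ajuba: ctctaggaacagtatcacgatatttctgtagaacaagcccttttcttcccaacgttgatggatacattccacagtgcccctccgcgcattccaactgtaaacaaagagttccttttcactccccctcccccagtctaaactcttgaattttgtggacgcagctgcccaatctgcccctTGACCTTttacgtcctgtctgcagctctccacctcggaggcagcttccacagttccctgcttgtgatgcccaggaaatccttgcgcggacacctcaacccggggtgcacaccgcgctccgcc
Tmem191c: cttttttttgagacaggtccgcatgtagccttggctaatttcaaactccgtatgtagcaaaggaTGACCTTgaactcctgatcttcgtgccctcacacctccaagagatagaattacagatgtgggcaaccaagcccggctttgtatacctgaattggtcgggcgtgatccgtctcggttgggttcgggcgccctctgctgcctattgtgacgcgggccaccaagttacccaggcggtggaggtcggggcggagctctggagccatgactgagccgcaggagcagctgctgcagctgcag
Gpr161: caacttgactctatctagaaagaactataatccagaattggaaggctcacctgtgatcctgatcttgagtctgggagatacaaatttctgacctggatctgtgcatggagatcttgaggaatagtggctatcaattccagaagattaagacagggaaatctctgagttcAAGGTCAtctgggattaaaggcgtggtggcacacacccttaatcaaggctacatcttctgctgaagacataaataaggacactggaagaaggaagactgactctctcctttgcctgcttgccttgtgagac
Rflnb: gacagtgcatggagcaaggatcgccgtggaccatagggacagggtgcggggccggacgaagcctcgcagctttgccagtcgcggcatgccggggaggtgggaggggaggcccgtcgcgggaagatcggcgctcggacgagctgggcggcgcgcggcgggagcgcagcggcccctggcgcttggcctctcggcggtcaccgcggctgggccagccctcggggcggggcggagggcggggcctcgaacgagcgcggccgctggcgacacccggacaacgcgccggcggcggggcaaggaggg
Aqp11: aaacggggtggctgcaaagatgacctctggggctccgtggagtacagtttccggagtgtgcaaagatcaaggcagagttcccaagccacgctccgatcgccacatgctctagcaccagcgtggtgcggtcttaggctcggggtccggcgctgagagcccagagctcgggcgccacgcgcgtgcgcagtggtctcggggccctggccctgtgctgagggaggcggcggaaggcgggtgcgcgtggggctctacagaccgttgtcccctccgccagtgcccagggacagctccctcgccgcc

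From L2C to 4C the median level of the genes changed little in mz_DHet controls (-0.07 on the log2 scale), and by 8C the genes had split. The 4C against L2C contrast called 0 of the 250 by limma, while 18 had an unadjusted p under 0.05 (0.0166% of all genes tested were called lower and 0.00552% higher). In either direction 0.0221% of all genes tested were called. Only 1 of the 6 mz_DHet embryos of 4C shared a date, 22 May 2022, with mz_DHet embryos of L2C. Without the date factor 1 member was called, beside 277 lower and 169 higher over all genes tested. For 3 of the 250 members the embryos of the 2 stages did not overlap, as for 1.1% of all genes tested. At 8C against L2C, 110 of 250 were called lower (35.6% of all genes tested) and 54 higher (14.8%). The median log2 difference was -0.55 over the 250 genes, beside -0.47 over all genes tested. Under median-of-ratios scaling, which moved all genes by -0.25 in the median, the split was 89 lower and 70 higher. In the UMI table, which reads the 5′ ends of transcripts with unique molecular identifiers (UMI), 106 of 235 members tested were lower (37.4% of all genes tested there) and 25 (10.6%) higher, where 11.5% of all genes were higher. In the full-length values no value of the 2 stages overlapped for 78 of 250 members and for 15.5% of all genes tested (50.4% of all genes were called in either direction). On 8 March 2022, the only date with both stages, 15 embryos of 8C and 2 of L2C gave 170 calls. As whole embryos were sequenced, fewer cells using a gene and less RNA per cell cannot be told apart.

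Genes that dropped most after 4C came from several pathways. Rilpl2, a Rab effector of the primary cilium, had lowest, median and highest levels of 118, 327 and 555 TPM at L2C, 169, 195 and 346 TPM at 4C and 0, 3.06 and 11.6 TPM at 8C in mz_DHet embryos. Its 8C minus L2C change was -5.02 ± 0.42 (SE; adjusted p = 1.43e-19), the largest fall among members with an ordinary gene symbol. The metalloproteinase Mmp19 averaged 0.544 ± 0.674 TPM at 8C and 37.5 ± 10.2 TPM at L2C (SD, n = 21 and 7), and fell by 4.89 ± 0.42 on the log2 scale (adjusted p = 3.37e-19). Inka1, an inhibitor of the kinase Pak4, averaged 4.95 ± 3.93 TPM at 8C and 224 ± 156 TPM at L2C, and fell by 4.72 ± 0.58 (adjusted p = 1.4e-11). For each of these 3 genes the 2 stages did not overlap. Slc25a28, a mitochondrial iron carrier, fell by 4.37 ± 0.43 (adjusted p = 8.7e-16), and Lctl, a relative of lactase, fell by 4.17 ± 0.38 (adjusted p = 1.12e-17). H2-Q6 went the same way at -4.34 ± 0.48 (adjusted p = 8.99e-14) and H2-Q10 at -3.55 ± 0.50 (adjusted p = 1.64e-09), while H2-Q7 was at -0.86 ± 0.39 (adjusted p = 0.0549). Reads may be shared among these near copies.

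Among genes with ordinary symbols, rises after 4C were smaller in size. Eif4ebp1, which holds back the cap-binding factor eIF4E, averaged 592 ± 267 TPM at 8C and 153 ± 97.8 TPM at L2C (SD, n = 21 and 7), a change of 3.29 ± 0.39 (SE; adjusted p = 3.65e-12), or 2.18 without the date factor. Galactokinase, Galk1, had 64.8, 344 and 518 TPM at 8C and 19.6, 31.4 and 104 TPM at L2C, and rose by 3.23 ± 0.61 (adjusted p = 3.13e-06). Renbp, an epimerase of N-acetylglucosamine, had 205, 480 and 682 TPM at 8C and 11.2, 75.9 and 145 TPM at L2C, with no overlap, and rose by 2.62 ± 0.47 (adjusted p = 1.28e-06). Pramel4, of a gene family active in early embryos, rose by 2.71 ± 0.41 (adjusted p = 1.11e-08; 1.39 without the date factor). The rRNA processing factor Tsr2 rose by 2.34 ± 0.53 (adjusted p = 9.47e-05; 1.37 without it) and the autophagy protease Atg4d by 2.18 ± 0.38 (adjusted p = 4.64e-07).

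The genes with the largest L2C minus E2C difference took different courses later. Timd2 had 853, 1025 and 1324 TPM at L2C, 1062, 1535 and 2050 TPM at 4C and 3039, 4479 and 6428 TPM at 8C in mz_DHet embryos. Its 8C minus L2C change was 2.17 ± 0.32 (adjusted p = 3.83e-09), but -0.05 (adjusted p = 0.948) in the UMI table, which holds 16 of the 21 mz_DHet embryos of 8C and all 7 of L2C. In the full-length values of those embryos alone it was 2.14 (adjusted p = 3.37e-08). Cd63 rose by 1.32 ± 0.28 (adjusted p = 3.85e-05). Gata1 fell by 1.62 ± 0.43 (adjusted p = 0.001), Exoc3l2 by 2.72 ± 0.49 (adjusted p = 1.31e-06), Npl by 1.24 ± 0.40 (adjusted p = 0.00672) and Gorasp1 by 1.19 ± 0.29 (adjusted p = 0.00035). Folr1 at -0.44 ± 0.21 (adjusted p = 0.0783), Slc4a11 at -0.76 ± 0.42 (adjusted p = 0.128), Pdxk at -0.11 ± 0.23 (adjusted p = 0.709) and Uap1l1 at 0.37 ± 0.36 (adjusted p = 0.419) did not pass.

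Textbook roles were assigned to 174 of the genes after the members were known. No test was made between roles, and over all genes tested 35.6% were lower and 14.8% higher at 8C against L2C. Of 16 transcription factors and lineage signalling genes, 10 fell and 1 rose (the homeobox gene Crxos), with a median change of -1.39. Fgf4, the growth factor that sustains the trophectoderm, was among them: it had 26.5, 77.4 and 152 TPM at L2C, 52.7, 91.0 and 121 TPM at 4C and 0, 4.60 and 15.996 TPM at 8C, and fell by 3.80 ± 0.59 (adjusted p = 2.96e-08). Of 9 class I and immune signalling genes 5 fell and 0 rose (median -2.40), of 8 phosphatase and other signalling genes 6 fell and 0 rose (median -2.17), and of 13 ubiquitin and DNA repair genes 8 fell and 0 rose (median -1.05). Mitochondrial proteins had 6 of 23 lower and 10 higher (median 0.44), and translation and RNA processing 5 of 18 lower and 7 higher. Early embryo families had 1 of 6 lower and 3 higher, including Pramel6 and Trim43a. Neither of the 2 metallothioneins passed. Metabolic enzymes had 9 of 25 lower and 5 higher, lysosome and vesicle genes 10 of 21 and 5, and transporters and receptors 6 of 16 and 5.

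**Figure D2:**
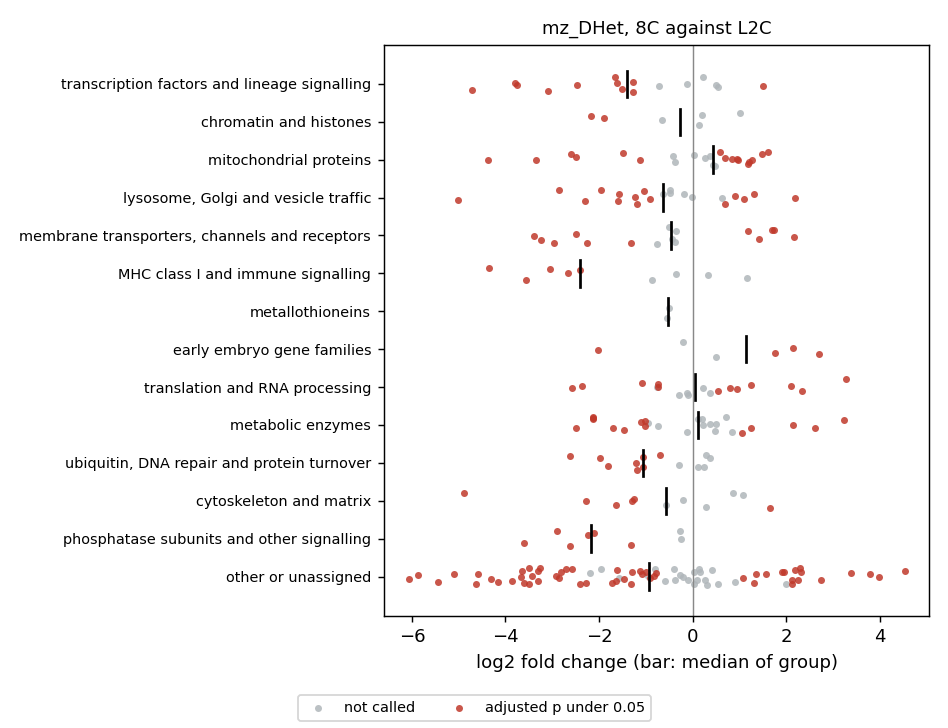
Log2 fold change at 8C against L2C in mz_DHet embryos for each member (points), grouped by role, with red points for members called by limma and a bar at the median. Transcription factors, immune genes and phosphatase subunits lie mostly below 0, and mitochondrial proteins have a median of 0.44.

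At L2C, when the genes switch on, few of them passed the test in any mutant. In mz_NrKO against mz_DHet embryos 4 of 250 were called lower and 0 higher, with 51 at an unadjusted p under 0.05 (0.127% of all genes tested were called lower and 0% higher). The median difference over the 250 was -0.56, beside 0.02 over all genes tested, and 207 were below 0. In mz_DKO embryos 5 were called lower and 0 higher, with 41 at an unadjusted p under 0.05 (0.141% and 0%), and a median of -0.09 beside 0.04. In mz_EKO embryos 0 were called, with 22 at an unadjusted p under 0.05 (0% in either direction), and a median of -0.36 beside -0.01. The mz_NrKO result turned on the date term: without it 65 were called (60 lower), and within 8 March 2022, with 10 mz_NrKO and 2 mz_DHet embryos, 0 were called. Without mz_NrKO replicate 6, an exclusion chosen after seeing the data, 2 were called and the median difference was -0.36. Without mz_DHet replicate 6 or replicate 7 there were 0 or 2 calls. The mz_EKO median was -0.23 without mz_EKO replicate 9, also left out after seeing the data. In mz_DKO embryos 3 calls were left without mz_DHet replicate 7. No value overlapped between mutant and control for 16 members in mz_NrKO, 9 in mz_DKO and 0 in mz_EKO embryos (0.657%, 0.898% and 0.127% of all genes tested).

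Ajuba, a LIM protein that acts in Hippo signalling, was called lower in both Nr5a2 mutants at L2C. It had lowest, median and highest levels of 5.93, 34.5 and 69.9 TPM in mz_NrKO embryos, 7.68, 30.2 and 65.4 TPM in mz_DKO embryos and 36.7, 59.7 and 130 TPM in mz_EKO embryos, against 83.3, 108 and 151 TPM in mz_DHet embryos. All mz_NrKO and mz_DKO embryos lay below the lowest control, and mz_EKO embryos overlapped the controls. The log2 change was -2.35 ± 0.53 (SE; adjusted p = 0.0447) in mz_NrKO, -2.20 ± 0.49 (adjusted p = 0.0365) in mz_DKO and -1.12 ± 0.54 (adjusted p = 0.741) in mz_EKO embryos. Zygotic mutants, set side by side with no test, had 10.1, 24.3 and 56.4 TPM in z_NrKO embryos and 20.8, 81.4 and 144 TPM in z_NrHet embryos. Tmem191c, a predicted membrane protein, had 7.88, 36.1 and 65.2 TPM in mz_NrKO and 15.0, 21.5 and 105 TPM in mz_DKO embryos, against 56.7, 124 and 171 TPM in mz_DHet embryos. It fell by 2.46 ± 0.44 (adjusted p = 0.00539) in mz_NrKO and by 2.31 ± 0.40 (adjusted p = 0.00271) in mz_DKO embryos, with overlap in both. All mz_DHet embryos are shared by these comparisons.

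The other calls at L2C were in 1 of the 2 mutants. Ccdc137 had 35.1, 65.5 and 111 TPM in mz_NrKO embryos, against 143, 179 and 251 TPM in mz_DHet embryos, and fell without overlap by 1.52 ± 0.28 (adjusted p = 0.0056). The inositol trisphosphate kinase gene Itpkc fell by 1.41 ± 0.32 in mz_NrKO embryos (adjusted p = 0.0447). Rflnb, a filamin-binding regulator of the actin skeleton, had 0.381, 1.41 and 5.45 TPM in mz_DKO embryos, against 10.8, 59.7 and 73.8 TPM in mz_DHet embryos, and fell by 3.67 ± 0.77 (adjusted p = 0.0207). It was as low in mz_NrKO embryos, at 0, 1.27 and 5.78 TPM, where the change of -3.54 ± 0.84 did not pass (adjusted p = 0.0766), and neither mutant overlapped the controls. Ppp1r16b, a targeting subunit of protein phosphatase 1, had 0.298, 2.72 and 9.24 TPM in mz_DKO embryos, against 16.4, 19.8 and 47.4 TPM in mz_DHet embryos, and fell by 3.19 ± 0.58 (adjusted p = 0.00401). In mz_NrKO embryos it had 0.667, 6.95 and 11.0 TPM and changed by -2.54 ± 0.63 (adjusted p = 0.107). The last call in mz_DKO was a predicted gene, Gm7792, at -2.72 ± 0.57 (adjusted p = 0.0202), and no test was made of whether the mutants differ from each other.

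Embryos at 4C gave more calls, nearly all of them lower. In mz_NrKO embryos 7 of 250 were called lower and 0 higher, with 60 at an unadjusted p under 0.05 (0.414% of all genes tested were called lower and 0.261% higher). In mz_DKO embryos 22 were called lower and 2 higher, with 70 at an unadjusted p under 0.05 (1.68% and 0.897%). In mz_EKO embryos 0 were called, with 15 at an unadjusted p under 0.05 (0%). Median changes over the 250 were small, at -0.10 in mz_NrKO and -0.04 in mz_DKO embryos, beside 0.06 and 0.05 over all genes tested. Members without overlap numbered 14 of 250 in mz_NrKO, 12 in mz_DKO and 8 in mz_EKO embryos, where 2.05%, 0.767% and 1.05% of all genes tested had none (0.675%, 2.58% and 0% of all genes were called in either direction). Leaving out mz_NrKO replicate 2 left 4 calls in mz_NrKO embryos. The part of the blood markers in the 3 libraries named above was not tested.

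Tead4, the transcription factor required for the trophectoderm in the mouse, had 53.9, 40.0, 16.3, 15.5 and 24.8 TPM in the 5 mz_NrKO embryos of 4C. It had lowest, median and highest levels of 4.97, 34.0 and 50.6 TPM in mz_DKO embryos, against 186, 231 and 316 TPM in mz_DHet embryos. The 4 mz_EKO embryos had 217, 295, 251 and 73.8 TPM. Both Nr5a2 mutants lay entirely below the controls, and 3 of 4 mz_EKO embryos were within the range of the controls. Tead4 fell by 2.69 ± 0.50 (SE; adjusted p = 0.00924) in mz_NrKO and by 3.46 ± 0.40 (adjusted p = 1.13e-05) in mz_DKO embryos, and changed by 0.21 ± 0.56 (adjusted p = 0.974) in mz_EKO embryos. At L2C it had 1.49, 19.8 and 68.0 TPM in mz_NrKO and 15.5, 28.6 and 44.4 TPM in mz_DKO embryos, against 56.2, 134 and 202 TPM in mz_DHet embryos, where changes of -2.91 ± 0.85 (adjusted p = 0.242) and -2.15 ± 0.78 (adjusted p = 0.356) did not pass. Zygotic mutants at L2C had 1.94, 28.6 and 51.5 TPM in z_NrKO embryos and 69.1, 167 and 264 TPM in z_NrHet embryos, without a test.

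Rflnb and Ppp1r16b had the largest falls of any named member at 4C. Rflnb had 5.90, 4.73, 8.75, 0 and 2.35 TPM in mz_NrKO embryos and 1.07, 3.77 and 10.3 TPM as lowest, median and highest in mz_DKO embryos, against 33.2, 50.7 and 88.9 TPM in mz_DHet embryos. It fell by 3.52 ± 0.57 (adjusted p = 0.00262) in mz_NrKO and by 3.56 ± 0.46 (adjusted p = 4.86e-05) in mz_DKO embryos. The 4 mz_EKO embryos had 33.5, 71.0, 129 and 30.3 TPM, a change of 0.26 ± 0.63 (adjusted p = 0.974). Ppp1r16b had 8.15, 3.09, 6.44, 0.149 and 3.79 TPM in mz_NrKO embryos and 0.862, 2.24 and 9.70 TPM in mz_DKO embryos, against 44.0, 50.0 and 69.3 TPM in mz_DHet embryos. It fell by 3.56 ± 0.54 (adjusted p = 0.00138) and by 3.90 ± 0.43 (adjusted p = 9.2e-06). The mitochondrial sodium and calcium exchanger Slc8b1 had 40.4, 18.8, 28.8, 2.97 and 0 TPM in mz_NrKO and 7.28, 17.1 and 30.0 TPM in mz_DKO embryos, against 63.5, 90.0 and 128 TPM in mz_DHet embryos, with changes of -2.69 ± 0.60 (adjusted p = 0.0303) and -2.40 ± 0.48 (adjusted p = 0.00521). None of these 3 genes overlapped between either Nr5a2 mutant and the controls.

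Further calls at 4C were Ripor3 at -2.57 ± 0.46 (adjusted p = 0.00603) in mz_NrKO and -2.69 ± 0.37 (adjusted p = 0.000105) in mz_DKO embryos, and Zyg11a, a substrate receptor of a ubiquitin ligase, at -2.13 ± 0.43 (adjusted p = 0.0166) and -1.61 ± 0.34 (adjusted p = 0.00886). Gorasp1 was lower in mz_NrKO embryos by a smaller amount, at -0.63 ± 0.15 (adjusted p = 0.0464). In mz_DKO embryos the zinc finger factor Sp6 fell by 2.24 ± 0.53 (adjusted p = 0.0186), the actin crosslinker Actn2 by 2.19 ± 0.49 (adjusted p = 0.0123) and the microtubule regulator Stmn3 by 2.18 ± 0.35 (adjusted p = 0.000536). The 2 genes called higher in mz_DKO embryos were Ltbp4, which binds latent TGF-beta in the matrix, at 1.23 ± 0.28 (adjusted p = 0.015), and the immune kinase Irak2 at 0.73 ± 0.17 (adjusted p = 0.0196).

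**Figure D3:**
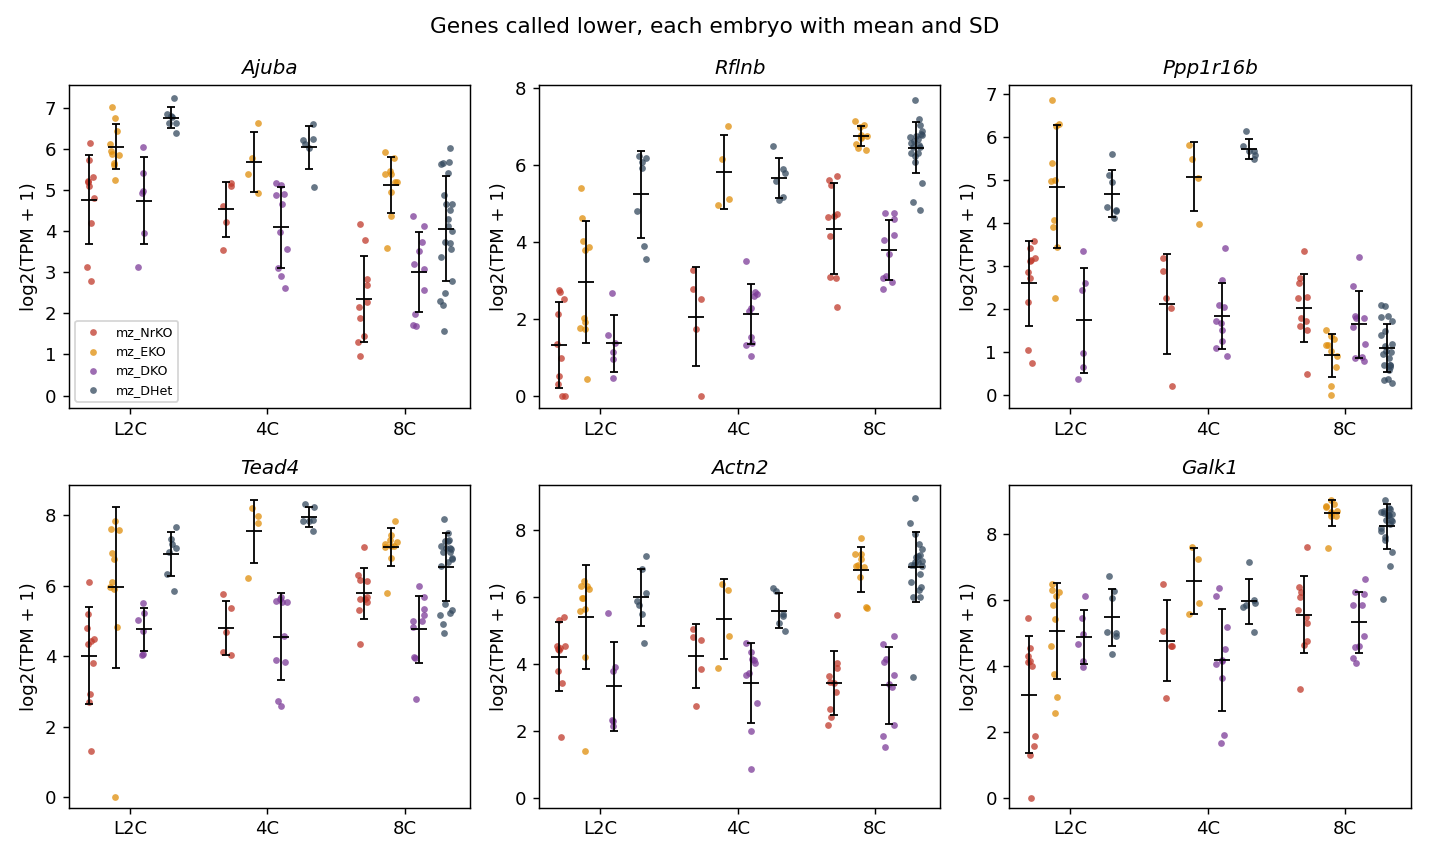
Log2(TPM + 1) of Ajuba, Rflnb, Ppp1r16b, Tead4, Actn2 and Galk1 in each embryo at L2C, 4C and 8C, by genotype, with the mean and SD per group. In mz_NrKO and mz_DKO embryos Rflnb, Ppp1r16b and Tead4 lie below all mz_DHet controls at 4C, and the mz_EKO embryos lie with the controls or overlap them.

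At 8C calls among the genes were common, in both directions, in the Nr5a2 mutants. Of 246 members tested, 46 (18.7%) were lower and 44 (17.9%) higher in mz_NrKO embryos, where 14.2% of all genes tested were lower and 14.1% higher. In mz_DKO embryos 48 (19.5%) were lower and 59 (24.0%) higher, where the shares over all genes were 14.8% and 18.9%. In mz_EKO embryos 0 were called, with 5 at an unadjusted p under 0.05 (0.00919% and 0% over all genes). The medians over the members were 0.01 in mz_NrKO and 0.05 in mz_DKO embryos, beside 0.00 and 0.05 over all genes. At least 2-fold changes were 23 lower and 22 higher in mz_NrKO and 23 and 30 in mz_DKO embryos. Both mutants called 34 members lower, 35 higher and 0 in opposite directions, but they share the mz_DHet controls. For the 2-fold changes and the shared calls no shares over all genes were counted, so neither is read as particular to the members. Members without overlap numbered 0 in mz_NrKO, 0 in mz_EKO and 4 in mz_DKO embryos (0.0276%, 0% and 0.938% of all genes tested had none, and 28.3%, 0.00919% and 33.7% were called in either direction).

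The 2-cell burst list, none of whose genes is a member, was higher in the same embryos. Its summed level had lowest, median and highest values of 84.0, 2278.05 and 4277.1 TPM in mz_NrKO and 1293.5, 2384.6 and 6342.6 TPM in mz_DKO embryos, against 201.1, 660.5 and 1195.3 TPM in mz_DHet embryos. Of its 19 genes tested 16 were called higher in mz_NrKO and 17 in mz_DKO embryos, with 0 lower. Over all genes tested 14.1% were higher in mz_NrKO and 18.9% in mz_DKO embryos. The oocyte list summed to 2155.7, 2850.05 and 8805.7 TPM in mz_NrKO embryos, against 1626.4, 2536.4 and 4847.5 TPM in mz_DHet embryos. Their part in the members' calls was not tested. Within 15 July 2022, with 3 mz_NrKO and 4 mz_DHet embryos, 25 members were called in mz_NrKO embryos, and within 8 March 94.

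Among transcription factors and lineage signalling genes, 7 of 16 were lower and 1 higher in mz_NrKO embryos, and 5 lower and 3 higher in mz_DKO embryos. Over all genes tested 14.2% were lower and 14.1% higher in mz_NrKO embryos, and 14.8% and 18.9% in mz_DKO embryos. No test was made between roles. Tead4 had 5.82, 30.7 and 62.0 TPM in mz_DKO embryos and 19.2, 49.3 and 136 TPM in mz_NrKO embryos, against 24.2, 124 and 237 TPM in mz_DHet embryos. It fell by 2.02 ± 0.24 (SE; adjusted p = 4.79e-09) in mz_DKO embryos, and its change of -0.59 ± 0.24 in mz_NrKO embryos did not pass (adjusted p = 0.0597). Ajuba had 0.950, 3.63 and 17.2 TPM in mz_NrKO and 2.22, 7.84 and 19.8 TPM in mz_DKO embryos, against 1.98, 16.4 and 64.2 TPM in mz_DHet embryos, whose own level at L2C had been far higher. It fell by 1.54 ± 0.34 (adjusted p = 0.000545) and by 1.35 ± 0.35 (adjusted p = 0.00185). Gata1, at 2.67, 23.6 and 90.7 TPM in mz_NrKO and 21.9, 61.3 and 102 TPM in mz_DKO embryos, against 3.29, 91.4 and 300 TPM in mz_DHet embryos, fell by 1.67 ± 0.35 (adjusted p = 0.000273) and by 0.92 ± 0.36 (adjusted p = 0.0421).

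Smad7, an inhibitor of TGF-beta signalling, fell by 1.77 ± 0.28 (adjusted p = 3.32e-06) in mz_NrKO and by 1.34 ± 0.29 (adjusted p = 0.000179) in mz_DKO embryos. Crxos had 652, 1057 and 4400 TPM in mz_NrKO and 190, 475 and 660 TPM in mz_DKO embryos, against 631, 1545 and 5254 TPM in mz_DHet embryos, and fell by 0.68 ± 0.20 (adjusted p = 0.00656) and by 1.75 ± 0.20 (adjusted p = 1.12e-09). Sapcd2, a regulator of spindle orientation, fell by 0.82 ± 0.18 in mz_NrKO embryos (adjusted p = 0.000427), as did Foxi3 and Inka1. Klf9, a zinc finger factor, went the other way, at 0.70 ± 0.19 (adjusted p = 0.00319) in mz_NrKO and 1.17 ± 0.19 (adjusted p = 2.25e-06) in mz_DKO embryos. Fgf4, already low in controls, had 0.196, 14.0 and 39.0 TPM in mz_DKO embryos, against 0, 4.60 and 15.996 TPM in mz_DHet embryos, and rose by 1.30 ± 0.50 (adjusted p = 0.0364). Ovol2 was called higher in mz_DKO embryos as well.

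Cytoskeleton and matrix genes moved both ways: of 10 tested, 4 were lower and 3 higher in mz_NrKO embryos, and 4 lower and 4 higher in mz_DKO embryos. The shares over all genes were 14.2% and 14.1% in mz_NrKO, and 14.8% and 18.9% in mz_DKO embryos. Actn2 had 3.51, 9.93 and 43.6 TPM in mz_NrKO, 1.86, 10.6 and 27.8 TPM in mz_DKO and 50.2, 122 and 215 TPM in mz_EKO embryos, against 11.1, 130 and 497 TPM in mz_DHet embryos. It fell by 3.57 ± 0.34 (SE; adjusted p = 5.6e-11) in mz_NrKO and by 3.38 ± 0.35 (adjusted p = 8.98e-11) in mz_DKO embryos, with some overlap through the lowest controls. Stmn3 had 15.4, 52.3 and 83.2 TPM in mz_NrKO and 10.9, 22.7 and 65.4 TPM in mz_DKO embryos, against 22.4, 298 and 400 TPM in mz_DHet embryos, and changed by -2.17 ± 0.24 (adjusted p = 2.45e-09) and -3.45 ± 0.25 (adjusted p = 2.97e-15). Rflnb had 3.98, 24.4 and 51.7 TPM in mz_NrKO and 5.90, 13.8 and 26.0 TPM in mz_DKO embryos, against 27.5, 94.4 and 206 TPM in mz_DHet embryos. It changed by -2.12 ± 0.29 (adjusted p = 1.99e-07) and, without overlap, by -2.64 ± 0.29 (adjusted p = 6.68e-10). Arhgdig was the remaining fall in both mutants.

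Mfap5, a protein of matrix microfibrils, had 13.1, 50.1 and 140 TPM in mz_NrKO and 48.2, 66.4 and 97.9 TPM in mz_DKO embryos, against 5.70, 12.0 and 34.9 TPM in mz_DHet embryos. All mz_DKO embryos lay above all controls, and mz_NrKO embryos overlapped them. It rose by 1.76 ± 0.29 (adjusted p = 5.86e-06) and by 2.31 ± 0.29 (adjusted p = 1.32e-08). In mz_DHet embryos Mfap5 had fallen by 2.28 ± 0.38 between L2C and 8C (adjusted p = 2.18e-07), with 47.3, 83.4 and 110 TPM at L2C.

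Transporters, channels and receptors had 4 of 16 lower and 2 higher in mz_NrKO embryos, and 5 lower and 5 higher in mz_DKO embryos. The shares over all genes were 14.2% and 14.1% in mz_NrKO, and 14.8% and 18.9% in mz_DKO embryos. Aqp11, an aquaporin of intracellular membranes, had 1.45, 71.8 and 131 TPM in mz_NrKO, 49.8, 104 and 197 TPM in mz_DKO and 1.15, 13.4 and 37.2 TPM in mz_EKO embryos, against 0.989, 12.0 and 73.2 TPM in mz_DHet embryos. It rose by 2.13 ± 0.48 (SE; adjusted p = 0.000575) in mz_NrKO and by 2.99 ± 0.49 (adjusted p = 2.52e-06) in mz_DKO embryos. In mz_DHet embryos it had fallen by 3.40 ± 0.53 between L2C and 8C (adjusted p = 3.99e-08). Timd2 had 2066, 3157 and 3799 TPM in mz_NrKO and 2117, 3097 and 3823 TPM in mz_DKO embryos, against 3039, 4479 and 6428 TPM in mz_DHet embryos, and fell by 0.59 ± 0.11 (adjusted p = 3.14e-05) and by 0.56 ± 0.11 (adjusted p = 4.43e-05). Gpr161, a receptor that restrains Hedgehog signalling, had 22.9, 37.6 and 184 TPM in mz_NrKO and 44.5, 74.4 and 114 TPM in mz_DKO embryos, against 18.8, 195 and 298 TPM in mz_DHet embryos. It fell by 1.78 ± 0.27 (adjusted p = 1.84e-06) and by 1.11 ± 0.28 (adjusted p = 0.00128). The sugar transporter Slc2a8 changed by -1.26 ± 0.17 (adjusted p = 1.94e-07) in mz_NrKO embryos, and the inositol transporter Slc5a11 by -1.34 ± 0.35 (adjusted p = 0.00254) in mz_NrKO and -1.10 ± 0.35 (adjusted p = 0.012) in mz_DKO embryos.

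Metabolic enzymes had 3 of 25 lower and 6 higher in mz_NrKO embryos, and 4 lower and 9 higher in mz_DKO embryos. The shares over all genes were 14.2% and 14.1% in mz_NrKO, and 14.8% and 18.9% in mz_DKO embryos. Galk1 had 8.89, 47.4 and 194 TPM in mz_NrKO, 15.98, 42.6 and 98.2 TPM in mz_DKO and 190, 408 and 525 TPM in mz_EKO embryos, against 64.8, 344 and 518 TPM in mz_DHet embryos. All 10 embryos of each Nr5a2 mutant lay below the mean of the controls, and it fell by 2.60 ± 0.28 (SE; adjusted p = 1.17e-09) and by 3.05 ± 0.29 (adjusted p = 6.9e-12). Renbp had 97.6, 137 and 504 TPM in mz_NrKO and 52.0, 122 and 204 TPM in mz_DKO embryos, against 205, 480 and 682 TPM in mz_DHet embryos, and changed by -1.42 ± 0.23 (adjusted p = 3.45e-06) and, without overlap, by -2.03 ± 0.23 (adjusted p = 9.02e-10). The fucosyltransferase Sec1 rose by 2.11 ± 0.50 (adjusted p = 0.00101) and by 2.41 ± 0.51 (adjusted p = 0.000151). For the mitochondrial proteins, 4 of 23 were lower and 3 higher in mz_NrKO embryos and 6 lower and 4 higher in mz_DKO embryos. Slc8b1, lower at 4C as well, had 29.9, 43.8 and 90.7 TPM in mz_NrKO and 24.0, 56.2 and 88.0 TPM in mz_DKO embryos, against 31.2, 118 and 161 TPM in mz_DHet embryos, and fell by 0.79 ± 0.14 (adjusted p = 1.4e-05) and by 1.09 ± 0.14 (adjusted p = 1.51e-08).

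Smaller groups at 8C had mixed counts. Over all genes tested 14.2% were lower and 14.1% higher in mz_NrKO embryos, and 14.8% and 18.9% in mz_DKO embryos. Of 9 class I and immune signalling genes, 1 was lower and 3 higher in mz_NrKO embryos, and 2 lower and 5 higher in mz_DKO embryos. H2-Q7, whose product is a Qa-2 antigen of the early embryo, had 10.3, 23.5 and 69.0 TPM in mz_NrKO and 14.5, 33.6 and 61.4 TPM in mz_DKO embryos, against 22.6, 112 and 242 TPM in mz_DHet embryos, and fell by 1.85 ± 0.25 (adjusted p = 1.19e-07) and by 1.94 ± 0.25 (adjusted p = 1.89e-08). Lysosome, Golgi and vesicle genes had 4 of 21 lower and 3 higher in mz_NrKO and 3 lower and 9 higher in mz_DKO embryos, with Cd63 among the rises at 0.38 ± 0.09 (adjusted p = 0.0011). Translation and RNA processing had 4 of 18 lower and 4 higher in mz_NrKO and 3 and 4 in mz_DKO embryos. Early embryo families had 2 of 6 lower in mz_NrKO (Pramel4 and Zyg11a) and 1 in mz_DKO embryos, with 0 higher in both. Ubiquitin and DNA repair genes had 2 of 13 lower and 3 higher in mz_NrKO, and 2 and 4 in mz_DKO embryos. The 47 predicted genes and pseudogenes tested had 3 lower and 10 higher in mz_NrKO and 7 lower and 4 higher in mz_DKO embryos. Among genes without an assigned role, Tmem191c fell by 0.70 ± 0.22 (adjusted p = 0.0138) in mz_NrKO and by 1.91 ± 0.23 (adjusted p = 2.96e-09) in mz_DKO embryos, and Cuedc2 rose by 1.35 ± 0.23 (adjusted p = 1.57e-05) and by 1.59 ± 0.24 (adjusted p = 4.74e-07).

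**Figure D4:**
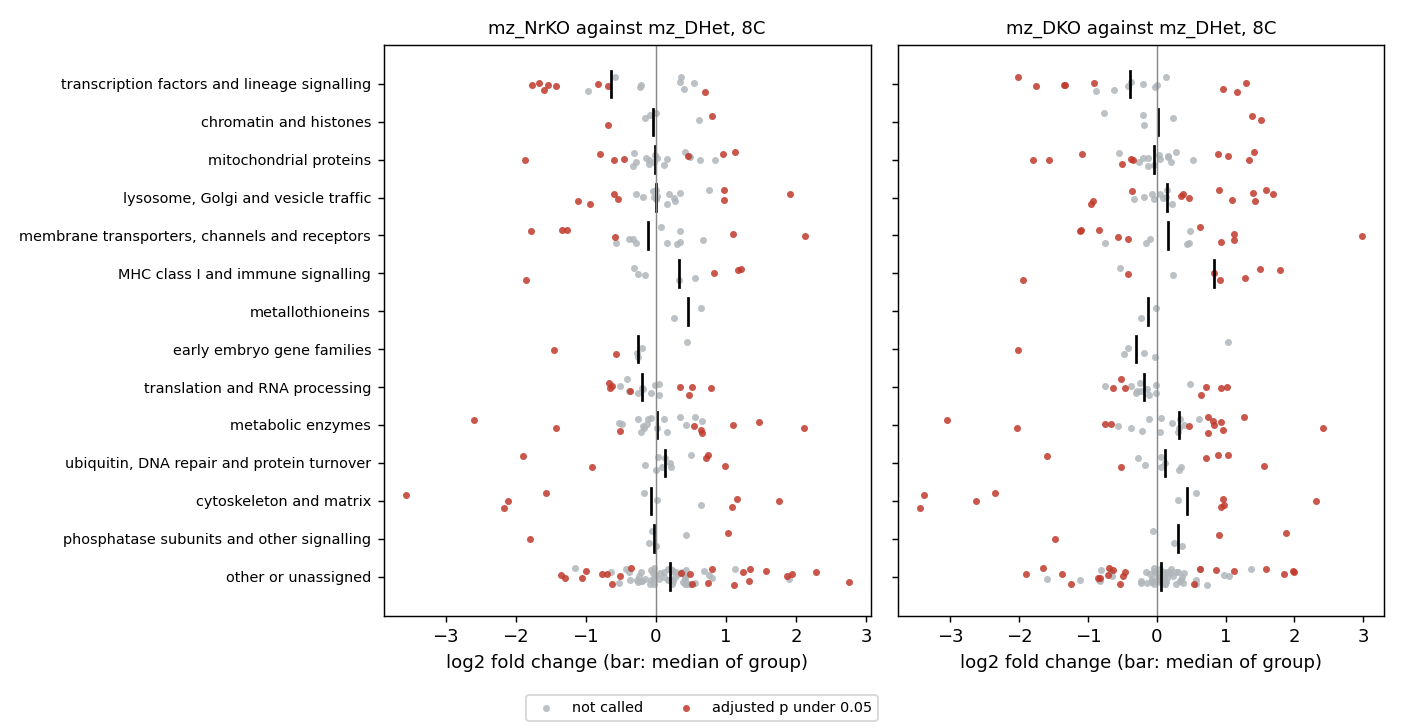
Log2 fold change of each member at 8C in mz_NrKO and mz_DKO against mz_DHet embryos, grouped by role, with red points for members called by limma and a bar at the median. Falls and rises occur side by side in most roles, and the overall medians are 0.01 and 0.05.

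**Figure D5:**
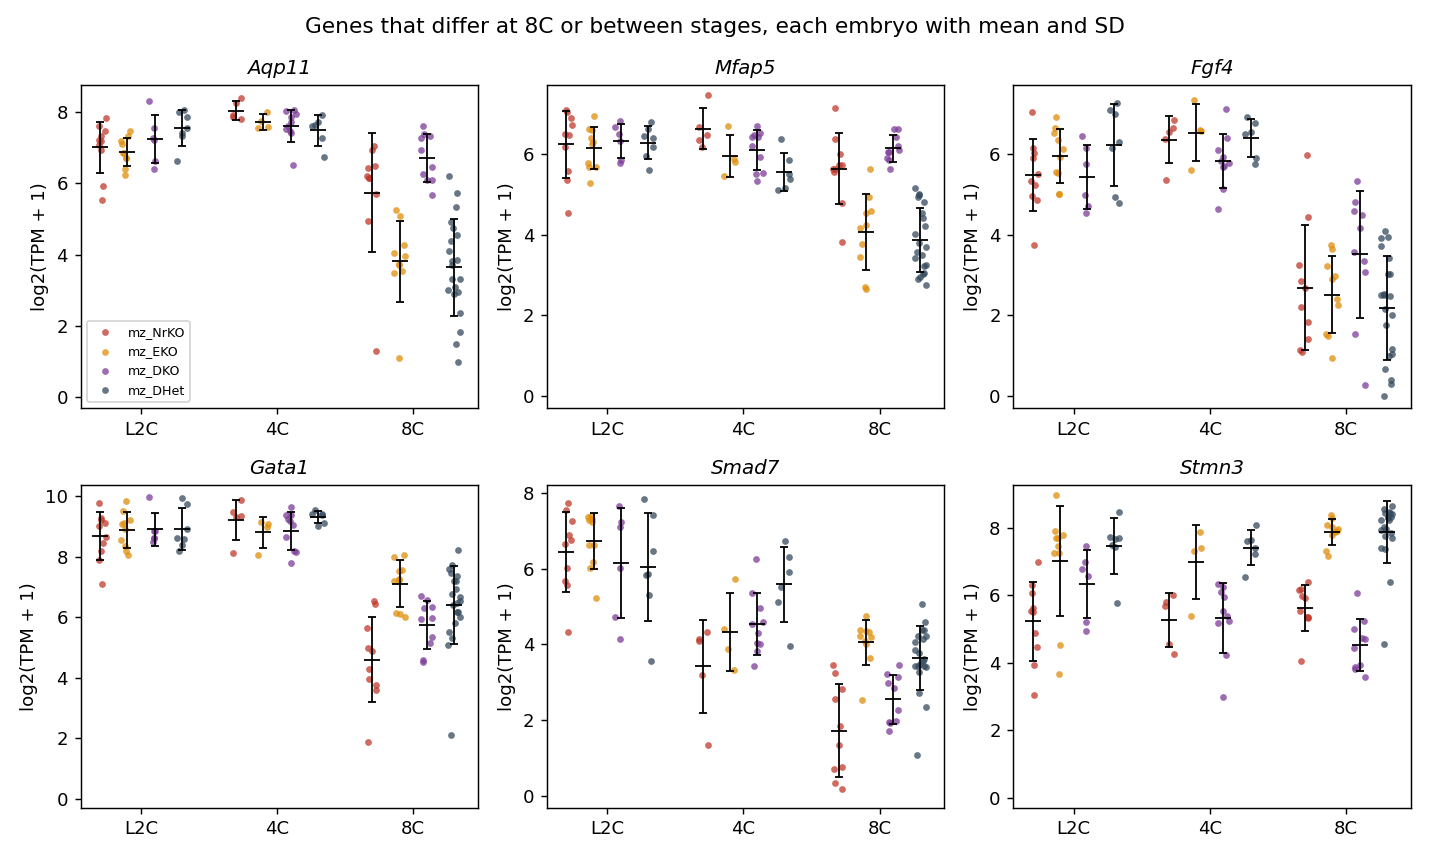
Log2(TPM + 1) of Aqp11, Mfap5, Fgf4, Gata1, Smad7 and Stmn3 in each embryo at L2C, 4C and 8C, by genotype, with the mean and SD per group. Aqp11 and Mfap5 are low at 8C in mz_DHet and mz_EKO embryos and higher in mz_NrKO and mz_DKO embryos, while Stmn3 is the reverse.

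Some members were called at several stages. In mz_DKO embryos 59 of the 250 were lower at some stage, beside 11.2% of all genes tested at any stage, and 0.704% of all genes were lower at 2 or more stages. Ajuba and Rflnb were called lower at all 3 stages, and 12 members at 2 of them, among them Tead4, Ppp1r16b, Actn2, Stmn3, Slc8b1, Tmem191c and Zyg11a. In mz_NrKO embryos 51 were lower at some stage (10.1% of all genes), 45 at 1 stage and 6 at 2 stages (Ajuba, Gorasp1, Rflnb, Slc8b1, Tmem191c and Zyg11a; 0.271% of all genes). Gorasp1 at 8C was at -0.94 in the full-length values but at 0.39 (adjusted p = 0.507) in the UMI table. Over all mutants and stages 138 of the 250 genes were called at least once, in either direction, and 112 never, where 29.4% of all genes tested at any stage were called. Most calls fell at 8C, where 246 of the 250 members were tested but only 10876 of the 15491 genes tested at any stage. The shares over all genes in this paragraph are therefore not like for like with the members' counts.

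Whether a difference from controls at 8C was itself unlike that at L2C was tested in the joint fit. In mz_NrKO embryos 1 member had a more negative difference at 8C and 14 a more positive one (0.602% and 1.35% of all genes tested, 1.95% together). In mz_DKO embryos there were 8 and 15 (1.93% and 3.72%), and in mz_EKO embryos 0, with 16 at an unadjusted p under 0.05 (0% in either direction). Gata1 was the single more negative one in mz_NrKO embryos. At L2C it had 136, 457 and 882 TPM in mz_NrKO embryos, against 287, 392.4 and 980 TPM in mz_DHet embryos, a change of 0.04 ± 0.39 (adjusted p = 0.987), and the difference between stages was -1.88 ± 0.55 (adjusted p = 0.0439), but -1.12 (adjusted p = 0.377) over the embryos that also have a UMI library. In mz_DKO embryos Renbp shifted by -3.29 ± 0.58 (adjusted p = 5.46e-05), Galk1 by -2.59 ± 0.75 (adjusted p = 0.0207) and Stmn3 by -2.12 ± 0.59 (adjusted p = 0.0163), all of them lower at 8C and not called at L2C.

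Positive shifts took more than one form. Ppp1r16b, at 2.96 ± 0.61 (adjusted p = 0.00254) in mz_NrKO and 3.57 ± 0.60 (adjusted p = 2.4e-05) in mz_DKO embryos, was low in the mutants at L2C and low in mz_DHet embryos at 8C, where their levels were 0.209, 1.00 and 3.28 TPM and the gene was not tested. Aqp11 at 3.06 ± 0.66 (adjusted p = 0.00104) and Mfap5 at 2.22 ± 0.47 (adjusted p = 0.000876) in mz_DKO embryos were at control level at L2C and above it at 8C.

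Other pathways were followed in the same embryos with lists chosen by function, which hold few of the 250 genes. At L2C in mz_NrKO embryos the ribosome biogenesis list had 0 of 134 genes called, and in mz_DKO embryos 0. At 8C, where 14.2% of all genes tested were lower and 14.1% higher in mz_NrKO embryos and 14.8% and 18.9% in mz_DKO embryos, it had 13 lower and 13 higher in mz_NrKO, and 15 and 20 in mz_DKO embryos. The aminoacyl-tRNA synthetases had 7 of 40 lower and 0 higher in mz_NrKO and 9 lower and 3 higher in mz_DKO embryos, while the RNA polymerase II list had 4 of 48 lower and 12 higher, and 3 and 11. In mz_DHet embryos at 8C against L2C (35.6% of all genes lower and 14.8% higher) the mitochondrial ribosome had 9 of 80 lower and 47 higher, RNA polymerases I and III 18 of 34 lower and 2 higher, and the oocyte list 26 of 31 lower and 2 higher. Lineage factors, of which Tead4 is the one member, had 11 of 36 lower and 6 higher in mz_NrKO and 14 lower and 9 higher in mz_DKO embryos at 8C.

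The UMI libraries carry the labels of embryos that are also in the full-length table, so they are a second readout and not replicates. All embryos of L2C and 4C were in both, but at 8C the UMI table held 5 of 10 mz_NrKO, 9 of 10 mz_EKO, 9 of 10 mz_DKO and 16 of 21 mz_DHet embryos, and none of 15 July 2022. The full-length values of these embryos alone, fitted as an alternative chosen after seeing the data, gave 56 calls in mz_NrKO (30 lower and 26 higher, against 90 in all embryos) and 104 in mz_DKO embryos (against 107). Of the 48 members called lower at 8C in mz_DKO embryos, 45 were tested there, 45 had the same sign and 33 were called. Of the 59 called higher, 55 were tested, 53 had the same sign and 46 were called. In mz_NrKO embryos, with 5 UMI libraries, 39 of 42 falls and 34 of 38 rises kept their sign, with 25 and 26 called. At 4C in mz_DKO embryos 21 of 21 falls kept their sign and 13 were called, and for 4C mz_NrKO it was 7 of 7 and 4. At L2C 4 of 4 kept their sign in mz_NrKO with 0 called, and 4 of 4 in mz_DKO with 1 called. For 8C against L2C in mz_DHet embryos, 105 of 108 falls and 42 of 46 rises kept their sign, with 88 and 21 called.

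The authors' deposited table, whose calls are taken at a change of 1.5-fold or more with a false discovery rate (FDR) below 0.1, gave for the 250 genes at L2C 4 lower and 0 higher in mz_NrKO, 22 and 3 in mz_DKO, and 0 and 0 in mz_EKO embryos. At 4C the authors' deposited table had 24 lower and 3 higher in mz_NrKO, 39 and 7 in mz_DKO and 0 and 2 in mz_EKO embryos. At 8C the authors' deposited table had 31 lower and 58 higher in mz_NrKO, 38 and 56 in mz_DKO and 0 and 0 in mz_EKO embryos. The shares over all genes at the authors' cut were not counted, so these counts do not set the members apart from other genes. For Tead4 the authors' deposited table lists log2 fold changes of -2.39 in mz_NrKO (false discovery rate 0.143) and -2.23 in mz_DKO (1.97e-07) at L2C, and of -3.02 (1.06e-19) and -3.40 (1.13e-12) at 4C. Ppp1r16b, not tested at 8C above, is higher in 8C mz_NrKO embryos in the authors' deposited table, at 1.41 (false discovery rate 0.00233).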

How the data were processed

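Single mouse oocytes and embryos were profiled by polyadenylated RNA-seq with a protocol derived from FLASH-seq, per the labels' protocols, with genotyping primers added during cDNA amplification. The authors deposited values in TPM per gene and library, and cutadapt, STAR, RSEM, DESeq2 and the mm10 build are named in the submitters' processing notes with no versions. Of 514 samples, 263 full-length and 110 UMI libraries were used and 141 were not used here. Named genes numbered 55168 in the deposited full-length values and 55247 in the UMI values, and 65 nameless entries were dropped. Full-length columns summed to between 814735 and 995883 TPM and UMI columns to 1000000. TPM keep no read counts, so the depth is unknown, and no counting interval or floor is given. The authors' deposited tables also hold log2 fold changes and q-values (false discovery rates) of their own comparisons, per the file headers.

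Values were tested as log2(TPM + 1), a scale that makes changes of weakly expressed genes look smaller. Genes reaching 5 TPM in a number of libraries equal to the size of a stage's smallest group were fitted with limma-trend (limma 3.58.1, R 4.3.3), with group and collection date as factors, all groups of a stage in one fit, and were called at a Benjamini-Hochberg adjusted p under 0.05 over all genes tested (two-sided). Stages were compared in a joint fit of L2C, 4C and 8C. The procedure was tested on simulated data that held no date effect and no shift of whole libraries, so the test does not cover those. Comparisons with groups that chose the members (oocytes, E2C, z_NrHet) have values only. Since mothers and litters are not labelled, p-values reflect only how embryos varied, and some may share a mother. Replicate numbers do not pair samples. The members, gene lists and roles were chosen with earlier results of these data known. Genes named are Nr5a2 and Esrrb, the 10 members first in the rule and those at its boundary, up to 8 called falls and rises per comparison, the 6 largest falls and rises between stages, and up to 5 members per list; other named genes were chosen after their values were seen, and 1 gene is not reported here. Alternatives covered pseudocount, filter, date term, scaling, group choice, single dates, left-out libraries, the replicate block and the UMI table. Promoter sequences are from RefSeq.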

Additional observations from a re-analysis of the deposited data

Results flagged for a closer look

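Outliers were sought 273 times, each time in 1 gene or the members' median within 1 group of 4 to 10 samples (log2 scale). In 30 of these tests a value stood further from the rest of its group than Dixon's 95% limit allows. Chance flags about 1 in 20 independent tests, but these share embryos and are not independent. At L2C, mz_NrKO replicate 6 was lowest in the median log2 level of the 250 genes (4.57), in Cd63 (74.6 TPM) and in Folr1 (401.1 TPM). L2C mz_EKO replicate 9 was lowest in Folr1 (306.4 TPM), Tead4 (listed at 0), Actn2 (1.64 TPM) and Esrrb (listed at 0). L2C z_NrKO replicate 1 was lowest in the median of the members (6.17), in Tead4 (1.94 TPM) and in Actn2 (listed at 0). Among L2C z_NrHet embryos, replicate 2 was lowest in Rflnb (2.96 TPM) and Ppp1r16b (19.9 TPM), and replicate 6 in Aqp11 (27.9 TPM). L2C mz_DKO replicate 2 was highest in Gata1 (1004 TPM), and L2C mz_DHet replicate 2 was lowest in Stmn3 (53.4 TPM).

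At 4C, mz_DHet replicate 2, one of the libraries with high blood markers, was lowest in the median of the members (6.28) and in Folr1 (820.1 TPM). In 4C mz_DKO embryos replicate 10 was lowest in Timd2 (416.1 TPM) and replicate 4 in Aqp11 (91.3 TPM), and 4C mz_EKO replicate 4 was lowest in Gata1 (264.2 TPM). At 8C, mz_EKO replicate 1 was lowest in the median of the members (5.56), Tead4 (54.1 TPM), Galk1 (189.8 TPM), Smad7 (4.84 TPM) and Esrrb (2.23 TPM), and replicate 6 in Aqp11 (1.15 TPM). 8C mz_DKO replicate 1 was lowest in Folr1 (94.9 TPM) and Esrrb (4.98 TPM). In 8C mz_NrKO embryos replicate 9 was lowest in Stmn3 (15.4 TPM) and replicate 1 in Aqp11 (1.45 TPM). Replicate 1 of 8C mz_EKO, mz_DKO and mz_NrKO was in each case the only embryo of its group dated 23 February 2022. The part of date in these values was not tested.

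The difference from mz_DHet embryos at 8C was unlike that at L2C, by the interaction term of the joint limma fit, for named members as follows. In mz_NrKO embryos the shift on the log2 scale was -1.88 for Gata1, and it was positive for Fkbp10 (3.38), Sec1 (3.00), Ppp1r16b (2.96), Ripor3 (2.80), Nt5c3b (2.12), Mfap5 (1.70) and Tpgs1 (1.67). In mz_DKO embryos it was negative for Renbp (-3.29), Galk1 (-2.59), Stmn3 (-2.12), Eif4ebp1 (-2.11), H2-Q7 (-1.74), Tomm5 (-1.48), Fam57b (-1.44) and Crxos (-1.08). It was positive there for Ppp1r16b (3.57), Aqp11 (3.06), Mfap5 (2.22), Tnfsf12 (1.74), Elovl6 (1.66), Cuedc2 (1.64) and Rilpl2 (1.62).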

How the results depend on the processing

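Counts of called members moved by over 1.5 times in these cases, and where no value is named the cause was not tested. At L2C in mz_NrKO embryos, with 4 calls as reported, 65 (60 lower, 5 higher) were called without the date factor and 43 (37 and 6) with the replicate block in place of date. In the same comparison 2 were called without the filter, 0 in the UMI table, 0 with only the 2 groups compared, 0 within 8 March 2022, 0 without mz_DHet replicate 6, 2 without mz_DHet replicate 7, 2 without mz_NrKO replicate 6 (added after seeing the data) and 1 among the first 100 members. At L2C in mz_EKO embryos, with 0, the date-free fit called 13 and the block 3. At L2C in mz_DKO embryos, with 5, the UMI table called 1, single dates 0 (22 May) and 0 (8 March), the fit without mz_DHet replicate 7 called 3, and the first 100 members held 1. At 4C, mz_NrKO (7) had 4 without the filter, 4 within 17 June, 4 to 9 when single replicates were left out and 2 among the first 100. There mz_EKO (0) had 0 to 1 when single replicates were left out, the 1 without mz_NrKO replicate 3, and mz_DKO (24) had 11 with the block, 15 in the UMI table and 7 among the first 100. At 8C, mz_NrKO (90) had 25 within 15 July, 56 in the full-length values of the embryos with a UMI library (added after seeing the data) and 35 among the first 100, and mz_DKO (107) had 42 among the first 100. Counts over the first 100 are lower by construction. For 4C against L2C in mz_DHet (0), the date-free fit and the block called 1 each. For shifts between stages, the date-free fit called 59 in mz_NrKO (15) and 4 in mz_EKO (0), and the embryos with a UMI library gave 9 in mz_NrKO.

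Of the called values of members named in the text, under these alternatives 1679 kept direction and call, 291 kept direction without passing and 7 reversed. In the UMI table these were Irak2 at 4C in mz_DKO embryos (-0.12), Fam57b (0.38) and Gorasp1 (0.39) at 8C in mz_NrKO embryos, and Timd2 (-0.05) and Gpr161 (-0.64) at 8C against L2C in mz_DHet embryos. Gpr161, called higher there at 1.19, was also at -0.05 without the date factor and -0.23 with the replicate block. Actn2 at 8C passed under all 11 alternatives in mz_NrKO embryos and under all 10 in mz_DKO embryos, where it ranged from -4.30 to -3.33. Replicate numbers are shared by name only: correlations of same-numbered embryos ran from -0.21 to 0.47, and in no comparison did all pairs exceed 0.1. The replicate block and the fit without a filter were not run for shifts between stages.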
